A study of Mus musculus with 6 samples.

Results

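The genes of antigen presentation by major histocompatibility complex (MHC) class I were examined in mouse mammary stem cells with and without MLL3. They are 10 genes chosen by function, set within 22180 genes with a value, and 9 of the 10 could be read: B2m, H2-K1, Tap1, Tap2, Tapbp, Psmb8, Psmb9, Psmb10 and Nlrc5. H2-D1 is listed in the platform annotation only on a probe set that it shares with a second gene, so it has no value here. Where several probe sets read a gene alone, the brightest by its 6-array mean stands for it, which among these genes concerned Tapbp only.

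The series compares 3 arrays of wild-type (WT) cells with 3 of Mll3-null cells, stem cell lines of the mammary gland made with CRISPR, grown as organoids (3-dimensional cultures) and given no further treatment in the labels. MLL3, the product of Kmt2c, is a histone methyltransferase that marks enhancers, and the study asked what its loss does to these cells. The sources used here do not give strain, age, the edited allele, or whether replicates of a group are separate lines or separate cultures. The p-values therefore measure only the spread among these cultures, which may be technical. Values are log2 expression per probe set on a scale common to all arrays (array medians 4.35 to 4.40), and precision is limited by having 3 arrays a group.

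Class I molecules show peptides from inside the cell to CD8 T cells. The proteasome cuts proteins into peptides, the transporter made of TAP1 and TAP2 carries them into the endoplasmic reticulum, tapasin (Tapbp) holds the transporter beside an empty class I molecule, and the finished molecule joins a heavy chain such as H2-K with beta-2 microglobulin. Interferon raises most of these genes, partly through the co-activator NLRC5, which acts on a promoter module of class I genes bound by the RFX, CREB/ATF and NF-Y factors. In mammary epithelium, as in most nucleated cells, class I is present without infection.

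Part of that module, the cores of the CREB/ATF and NF-Y sites, was searched in the promoters of the member genes, and the RFX site was not. It is shown because Nlrc5 and genes with both cores are among the 10. In the RefSeq windows from 250 bases before to 50 after each start (GRCm38.p6), 3 of the 8 member genes with a window held TGACG, the core of the X2 box bound by CREB/ATF, followed by ATTGG, the core of the Y box bound by NF-Y, with 25 bases from the first base of the former to that of the latter. They are H2-K1, H2-D1 and B2m, of which H2-D1 has no expression value here. Among all 32851 windows 19 (0.0578%) held the pair at that distance in the sense of the gene, and the class I gene H2-M3 was among them. The distance was chosen after it had been seen in these windows. Capitals mark these cores, an NF-kB core (GGGNNTTCC) in the heavy chain genes and an interferon-stimulated response element core (GAAANNGAA) in B2m, all searched on both strands. The stretches lie at chr17:34000354-34000463 (minus strand) for H2-K1, chr17:35262918-35263027 (plus strand) for H2-D1 and chr2:122147543-122147643 (plus strand) for B2m. Those of H2-D1 and B2m are upstream of the gene, and that of H2-K1 is upstream of the starts of its RefSeq windows but inside the annotated span of the gene, which ends at 34000619.
H2-K1: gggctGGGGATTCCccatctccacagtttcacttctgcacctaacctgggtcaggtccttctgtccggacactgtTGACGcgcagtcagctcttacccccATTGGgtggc
H2-D1: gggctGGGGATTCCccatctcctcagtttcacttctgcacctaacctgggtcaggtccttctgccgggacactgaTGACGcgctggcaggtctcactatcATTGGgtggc
B2m: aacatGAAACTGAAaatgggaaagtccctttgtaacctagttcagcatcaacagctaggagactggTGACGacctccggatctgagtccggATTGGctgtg

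The stretches of H2-K1 and H2-D1 matched at 99 of 110 bases, and that of B2m shared the pair but not the NF-kB core as spelled. Over all windows TGACG was found in 20.8%, ATTGG in 37.4%, the NF-kB core in 5.82% and the response element core in 8.56%. A match describes letters and does not show binding. Tap2 and Nlrc5 were not among the windows.

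A second regulatory stretch is shown because 2 of the members share it. Psmb9 and Tap1 lie head to head on chromosome 17, and their RefSeq starts are separated by the 225 bases at chr17:34187331-34187555, printed on the plus strand in the direction of Tap1. Capitals mark the X2 core on the strand of Tap1 and the Y box core on the strand of Psmb9, which reads CCAAT here.
Psmb9 to Tap1: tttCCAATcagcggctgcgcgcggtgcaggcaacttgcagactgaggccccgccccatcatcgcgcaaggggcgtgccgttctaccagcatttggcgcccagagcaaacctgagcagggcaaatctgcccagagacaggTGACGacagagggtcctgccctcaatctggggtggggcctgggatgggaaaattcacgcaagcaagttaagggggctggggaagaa

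Neither the NF-kB core nor the response element core, as spelled, was found in the windows of Tap1 or Psmb9. The Psmb8 window held TTCNNNGAA, a gamma-activated site core found in 8.30% of all windows, 97 bases upstream of the start.

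No difference between Mll3-null and WT cells was called for any of the 9 genes. With limma, 0 of the 9 had an adjusted p under 0.05 (0.84 to 0.98, Benjamini-Hochberg over 22180 genes), against 0% of all genes. At an unadjusted p under 0.05 there were again 0 of the 9, while 2.51% of all genes passed it on the higher and 2.42% on the lower side. The groups overlapped for each of the 9, where 5.44% of all genes lay without overlap above WT and 5.31% below. By group means 7 were higher and 2 lower in Mll3-null cells, against 51.5% of all genes higher, and quantile normalization made that 6 higher. The median difference was 0.05 log2 units, beside 0.01 over all genes.

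For most of these genes the arrays of a group lay further apart than the group means. The exceptions were Tap2, whose WT arrays spanned 0.22 log2 units, equal to its group difference, and Nlrc5, whose Mll3-null arrays spanned 0.21 beside a group difference of 0.27. For the other genes the range within WT and the range within Mll3-null arrays each exceeded the group difference. The median SD over the 6 arrays was 0.27 for these genes and 0.16 for all genes, and 8 of the 9 lay above the latter (values without a test). The count of genes with a higher mean moved with each array left out: it was 5 without WT replicate 1, 8 without WT replicate 2 and 4 without WT replicate 3. It was 4 when Mll3-null replicate 1 was left out, 4 when replicate 2 was and 9 when replicate 3 was.

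Mll3-null replicate 3 stood apart from the other arrays in the series. Those had 1 to 24 genes more than 1 log2 unit below all others and 9 to 33 genes more than 1 above. Mll3-null replicate 3 had 294 below and 123 above. The basal keratin Krt14 was at 6.65 there and between 11.74 and 12.43 elsewhere (Krt14, Kmt2c, Ptprc and Lcp1 were named after their values were seen). Kmt2c itself ran from 5.58 to 6.63 in WT and from 5.84 to 6.42 in Mll3-null arrays. Where its probe set lies against the edited part is unknown here, so it does not test the labels. All 10 mammary epithelial markers examined had a 6-array mean above 6, while 0 of 15 leukocyte, 0 of 8 fibroblast and 0 of 6 endothelial markers did. The mean deviation of the 10 was -0.96 in Mll3-null replicate 3 and ran from -0.15 to 0.42 elsewhere. Krt17 and Trp63 had SDs of 3.23 and 2.05 among Mll3-null arrays, against 0.76 and 0.49 in WT (named after their values were seen). The low mean was not shared by all 10 markers. Elf5 and Itga6 were highest in Mll3-null replicate 3, at 9.02 and 11.22, while Cdh1, like Krt14, was lowest there, at 10.44. Epcam had an SD of 0.11 in each group (named after its values were seen).

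**Figure D1:**
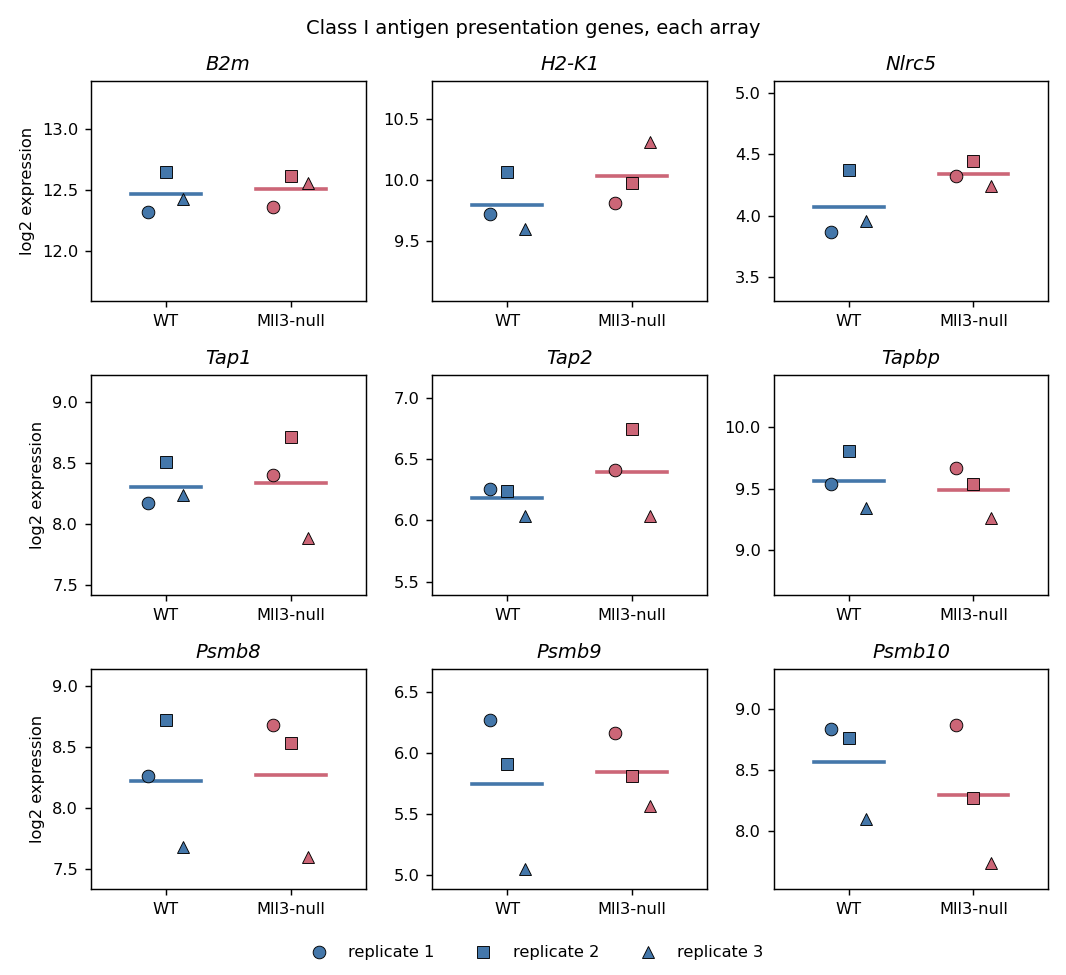
Log2 expression of the 9 class I antigen presentation genes on each array, WT in blue and Mll3-null in red, with a bar at each group mean (n = 3) and a symbol for each replicate number. No label ties a WT array to the Mll3-null array of the same number. All panels span 1.8 log2 units; the groups overlap in every panel, and Psmb8, Psmb9 and Psmb10 spread most.

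The light chain was the steadiest of the genes. B2m, which every class I heavy chain needs to reach the cell surface, was at 12.32, 12.65 and 12.43 in WT replicates 1 to 3 and at 12.36, 12.61 and 12.56 in Mll3-null replicates 1 to 3 (log2). The Mll3-null values lay inside the WT range. The group difference was 0.04 ± 0.12 (log2, SE; adjusted p = 0.95), and its 95% interval ran from 0.84-fold to 1.26-fold. Leaving out WT replicate 1 gave -0.03, leaving out the second Mll3-null array gave -0.01, and quantile normalization gave a value of -0.00.

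H2-K1 encodes the H2-K heavy chain, which carries the peptide groove. It was at 9.72, 10.07 and 9.60 in WT and at 9.81, 9.98 and 10.31 in Mll3-null replicates 1 to 3. Of the Mll3-null arrays, replicate 3 alone lay above the highest WT array. The difference of 0.24 ± 0.18 (log2, SE) did not pass (adjusted p = 0.84; fold 1.18, 95% interval 0.88 to 1.58) and was 0.10 without Mll3-null replicate 3. On that array the summed level of the 15 leukocyte markers was also highest, 353 on the linear scale against 291 to 297 in WT and 292 to 321 in the other Mll3-null arrays. That excess rested on Lcp1, an actin-bundling protein of leukocytes, at 6.70 there and at most 5.60 elsewhere. Without Lcp1 the sum was not highest on that array. As a mean log2 deviation the 15 markers stood at 0.06 there and at 0.07 in Mll3-null replicate 2. Ptprc (CD45), which defines leukocytes, stayed between 3.05 and 3.25 on all arrays. Their part in the value of H2-K1 was not tested. In RNA of whole cultures fewer cells of a type and less RNA per cell cannot be told apart. Some class I heavy chain genes are closely alike in sequence. Coding and probe sequences were not compared here, so how far the probe set reads H2-K1 alone is uncertain.

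Of 29 further heavy chain genes of class I or class I-like molecules, 20 had a value, and 12 of these had a higher and 8 a lower mean in Mll3-null cells (median 0.05, 0 past the correction). At an unadjusted p under 0.05 there were 3, all on the higher side, beside 2.51% of all genes. Of the 20 genes 5 had a mean under 4. Mr1, which presents vitamin B metabolites to MAIT cells, was at 8.30, 7.83 and 7.34 in WT and 8.18, 8.95 and 9.23 in Mll3-null replicates, a difference of 0.97 ± 0.34 (SE; adjusted p = 0.84). Hfe, a regulator of iron uptake, was at 5.39, 6.18 and 5.87 against 6.49, 6.21 and 6.98, and Cd1d1, which presents lipids to NKT cells, at 5.52, 5.37 and 5.63 against 5.69, 5.75 and 5.90 (adjusted p = 0.84 each). For Hfe and Cd1d1 the groups did not overlap, with Mll3-null above WT, beside 5.44% of all genes. Mr1, Hfe and Cd1d1 bind no peptide ligands of the TAP route. Among the genes closer to H2-K1, H2-T23 (Qa-1), a ligand of NK cell receptors, differed by 0.37 ± 0.22 and H2-Q4 by 0.24 ± 0.15, neither past the correction, and H2-M3, which carries the promoter pair, by 0.07 ± 0.14 (genes named after their values were seen). Single arrays moved these values: H2-T23 was 0.13 without Mll3-null replicate 2, H2-Q4 0.09 without WT replicate 3 and H2-M3 -0.02 without Mll3-null replicate 1.

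The transporter genes shared their highest and lowest arrays. Tap1 was at 8.17, 8.51 and 8.24 in WT and 8.40, 8.71 and 7.89 in Mll3-null replicates 1 to 3. Tap2 was at 6.26, 6.24 and 6.04 in WT and 6.41, 6.75 and 6.04 in Mll3-null replicates. Both were highest in Mll3-null replicate 2, and Mll3-null replicate 3 held the lowest value of each, level with WT replicate 3 to 2 decimals for Tap2. The difference was 0.03 ± 0.22 for Tap1 (log2, SE; adjusted p = 0.98; fold 1.02, 95% interval 0.71 to 1.47). For Tap2 it was 0.22 ± 0.19 (adjusted p = 0.85; fold 1.16, 95% interval 0.86 to 1.58). The differences became 0.25 and 0.40 when Mll3-null replicate 3 was left out, and -0.16 and 0.04 when Mll3-null replicate 2 was. Tap1 also took a negative sign when WT replicate 1 (-0.04), WT replicate 3 (-0.01) or the first Mll3-null array (-0.01) was left out.

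Tapbp encodes tapasin, the bridge between transporter and heavy chain. It was at 9.54, 9.81 and 9.34 in WT and 9.67, 9.54 and 9.26 in Mll3-null replicates, with 2 of the 3 Mll3-null arrays inside the WT range and replicate 3 under it. The difference was -0.07 ± 0.16 (log2, SE; adjusted p = 0.93), and took a positive sign when WT replicate 2 (0.05) or the third Mll3-null array (0.04) was left out. A second probe set of Tapbp, not used for the test, was dimmer, at 5.67, 6.16 and 5.65 in WT and 6.03, 5.67 and 5.71 in Mll3-null replicates. It too was highest in WT replicate 2.

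No call was made among genes of the loading complex and of folding in the endoplasmic reticulum. Of 10 listed genes 9 had a value, 1 with a higher and 8 with a lower mean (median -0.07, 0 past the correction and 0 at an unadjusted p under 0.05), and quantile normalization made that 3 higher. Tapbpl (TAPBPR), a tapasin relative that edits peptides, differed by -0.24 ± 0.16, the chaperone Calr by -0.13 ± 0.09 and Erap1, the aminopeptidase that trims peptides, by 0.12 ± 0.09 (log2, SE; adjusted p = 0.84 each). Tapbpl was -0.07 without Mll3-null replicate 3, Calr -0.07 without WT replicate 3 and Erap1 0.06 without Mll3-null replicate 1. Of 10 cytosolic peptidases, which destroy or trim peptides before transport, 9 had a value and 6 of these a lower mean (median -0.11, 0 past the correction and 0 at an unadjusted p under 0.05). Prep, prolyl endopeptidase, averaged 10.09 ± 0.17 (SD, n = 3) in WT against 9.73 ± 0.25 (SD, n = 3), Ide differed by -0.14 ± 0.10 and Thop1 by -0.17 ± 0.15 (SE; adjusted p = 0.84, 0.84 and 0.85). Leaving out Mll3-null replicate 3 gave -0.22 for Prep and -0.07 for Ide, and leaving out WT replicate 1 gave -0.01 for Thop1, which was -0.27 without WT replicate 2.

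**Figure D2:**
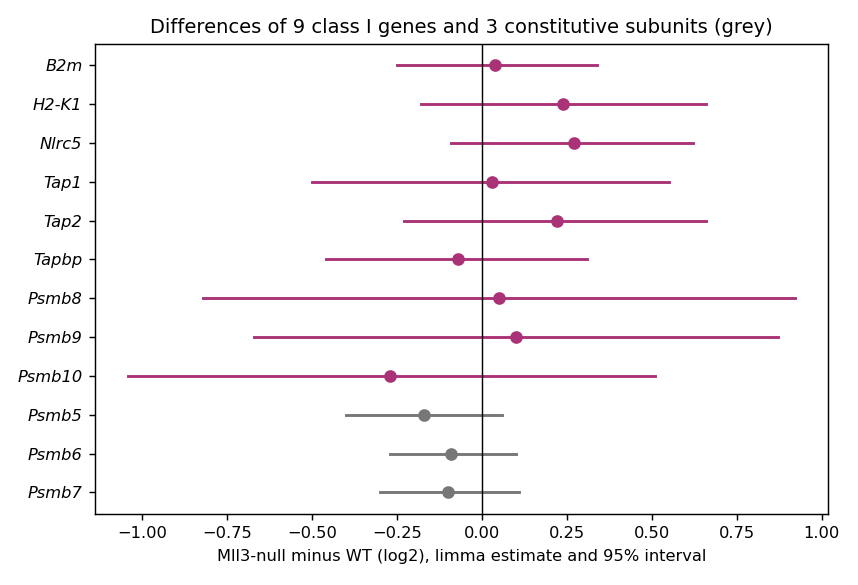
Mll3-null minus WT difference of each gene on the log2 scale (limma, 3 arrays a group); points are estimates, bars 95% intervals, purple for the 9 class I genes and grey for the constitutive subunits Psmb5, Psmb6 and Psmb7. All 12 intervals include 0. Among the 9 class I genes the bar of B2m is the narrowest, from -0.25 to 0.34, and that of Psmb8 the widest, from -0.82 to 0.92. The bar of Psmb10 runs from -1.04 to 0.51, and the grey bars are narrower than that of B2m.

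The immunoproteasome subunits had the widest ranges of the 9 genes over the 6 arrays, and also within WT, whereas within Mll3-null arrays Psmb9 spanned less than Tap1 and Tap2. Psmb8, Psmb9 and Psmb10 encode the catalytic subunits that interferon induces, each of which takes the place of a constitutive subunit and shifts cleavage toward peptides that fit class I. Psmb8 was at 8.26, 8.72 and 7.68 in WT and 8.68, 8.53 and 7.60 in Mll3-null replicates 1 to 3. Psmb9 was at 6.27, 5.91 and 5.05 in WT and 6.16, 5.81 and 5.57 in Mll3-null replicates. Psmb10 was at 8.84, 8.76 and 8.10 in WT and 8.87, 8.27 and 7.74 in Mll3-null replicates. In both groups the array numbered 3 was the lowest of its group for all 3 genes, although no label ties arrays of a number together. Psmb8 spanned 1.04 log2 units within WT and 1.08 within Mll3-null cells, Psmb9 1.22 and 0.59, and Psmb10 0.74 and 1.12.

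Against that spread the group differences of the 3 subunits were small. The difference was 0.05 ± 0.36 for Psmb8 (adjusted p = 0.98), 0.10 ± 0.32 for Psmb9 (adjusted p = 0.96) and -0.27 ± 0.32 for Psmb10 (adjusted p = 0.88; log2, SE). The 95% intervals ran from 0.57-fold to 1.90-fold, from 0.63-fold to 1.83-fold and from 0.49-fold to 1.42-fold; the data exclude no change inside these bounds. Psmb8 turned negative when WT replicate 3 (-0.22) or the first (-0.15) or second (-0.08) Mll3-null array was left out, and Psmb9 when WT replicate 3 (-0.25) or the first Mll3-null array (-0.06) was. Without Mll3-null replicate 3 the difference of Psmb10 was 0.01.

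Their constitutive counterparts were steady. Psmb5, Psmb6 and Psmb7, which Psmb8, Psmb9 and Psmb10 replace, spanned 0.33, 0.15 and 0.25 log2 units over the 6 arrays, where the inducible genes spanned 1.12, 1.22 and 1.12. Within each array the log2 ratio of inducible to constitutive subunit therefore moved mostly with the inducible gene. As a deviation from its 6-array mean, the ratio of Psmb8 to Psmb5 was -0.13, 0.36 and -0.56 in WT and 0.52, 0.48 and -0.67 in Mll3-null replicates. The ratio of Psmb9 to Psmb6 was 0.40, 0.11 and -0.78 against 0.43, 0.06 and -0.21. That of Psmb10 to Psmb7 was 0.43, 0.21 and -0.37 against 0.45, -0.03 and -0.68. The replicate 3 arrays were again the lowest of both groups. Mll3-null minus WT, the ratios differed by 0.22, 0.19 and -0.17 (exact two-sided permutation p = 0.60, 0.80 and 0.70, adjusted p = 0.80 each over the 3 pairs; the smallest p of 3 against 3 arrays is 0.1). Signs turned when WT replicate 3 was left out (-0.00 and -0.16 for Psmb8 and Psmb9) or when the third Mll3-null array was (0.13 for Psmb10).

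**Figure D3:**
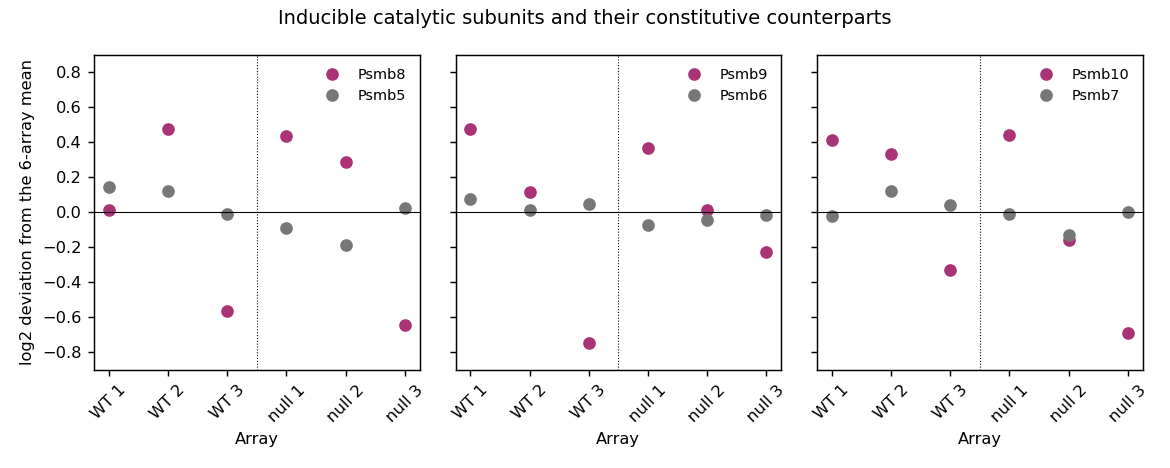
Log2 deviation from the 6-array mean of each inducible catalytic subunit (purple) and the constitutive subunit it replaces (grey), by array, with WT to the left of the dotted line and Mll3-null to the right. The purple points of WT 3 and null 3 lie below 0 in all panels, while the grey points stay close to 0.

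Of the 14 listed subunits of the constitutive 20S core, 13 had a value, 2 with a higher and 11 with a lower mean in Mll3-null cells (median -0.13, 0 past the correction), and median centring made that 12 lower. At an unadjusted p under 0.05 there was 1, on the lower side, beside 2.42% of all genes. For 7 of the 13 the groups did not overlap, all on the lower side, beside 5.31% of all genes. Psma1 was at 8.87, 8.90 and 9.03 in WT and 8.81, 8.67 and 8.49 in Mll3-null replicates, a difference of -0.27 ± 0.11, while Psma3 differed by -0.20 ± 0.10 and Psma7 by -0.20 ± 0.10 (log2, SE; adjusted p = 0.84 each). Leaving out Mll3-null replicate 3 gave -0.13 for Psma3 and -0.12 for Psma7. These are small differences between closely spaced arrays: the median SD over the 6 arrays was 0.10 for this list. Of 10 activators, inhibitors and assembly factors of the proteasome 4 had a higher and 6 a lower mean (median -0.04, 0 past the correction). At an unadjusted p under 0.05 there was 1, on the higher side, beside 2.51% of all genes. Psme2, a subunit of the interferon-inducible PA28 activator, was at 6.16, 6.42 and 6.34 in WT and 6.73, 6.83 and 6.43 in Mll3-null replicates, without overlap but by only 0.01 between the nearest arrays (0.36 ± 0.13, adjusted p = 0.84). Its partner Psme1 differed by -0.09 ± 0.12 (named after its values were seen), with -0.15 when Mll3-null replicate 1 and 0.01 when Mll3-null replicate 3 was left out. Pomp, the assembly factor of new proteasomes, differed by -0.18 ± 0.10 and Psmg4 by 0.22 ± 0.14 (adjusted p = 0.84 each), the latter 0.36 without WT replicate 1 and 0.12 without WT replicate 2.

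Nlrc5, the co-activator that class I genes depend on, was the dimmest of the 9 genes and close to 4, the limit used here for dim genes. It was at 3.87, 4.37 and 3.96 in WT and 4.32, 4.45 and 4.24 in Mll3-null replicates 1 to 3. WT replicate 2 lay within the Mll3-null range, and the other WT arrays lay below it. The difference was 0.27 ± 0.15 (log2, SE; adjusted p = 0.84; fold 1.20, 95% interval 0.94 to 1.54), between 0.17 and 0.42 as each array was left out. Its distance from background is unknown here.

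Other regulators were measured from 2 lists. Of 17 genes of the RFX, CREB/ATF, NF-Y and NF-kB complexes and their cofactors 15 had a value, 9 with a higher and 6 with a lower mean (median 0.06, 0 past the correction). At an unadjusted p under 0.05 there was 1, on the lower side, beside 2.42% of all genes. Nfkbia, the NF-kB inhibitor that NF-kB itself induces, was at 9.50, 9.54 and 9.12 in WT and 9.18, 8.97 and 8.40 in Mll3-null replicates (-0.54 ± 0.22, SE), Nfkb2 differed by -0.36 ± 0.20, and Rfx5, the DNA-binding subunit of RFX, by -0.18 ± 0.13 (adjusted p = 0.84 each). Leaving out Mll3-null replicate 3 gave -0.31, -0.22 and -0.07 for these 3 genes, Nfkb2 was -0.58 without Mll3-null replicate 1, and Rfx5 was -0.29 without Mll3-null replicate 2. Of 19 interferon receptor, JAK, STAT and IRF genes 18 had a value, 7 with a higher and 11 with a lower mean (median -0.06, 0 past the correction). At an unadjusted p under 0.05 there was 1, on the higher side, beside 2.51% of all genes. Irf9, the DNA-binding part of the type I interferon complex, was at 8.56, 8.83 and 8.71 in WT and 8.88, 9.24 and 9.08 in Mll3-null replicates (0.37 ± 0.13), Stat2 differed by 0.33 ± 0.19 and the interferon gamma receptor chain Ifngr2 by -0.30 ± 0.16 (adjusted p = 0.84 each). Stat2 was 0.20 with Mll3-null replicate 2 left out and 0.50 with replicate 3 left out. Irf1, a factor that induces Tap1 and Psmb9, was at 7.94, 7.70 and 7.25 in WT and 7.82, 7.53 and 7.09 in Mll3-null replicates (named after its values were seen). Like the immunoproteasome subunits it was lowest in the replicate 3 array of each group, and its difference was -0.15 ± 0.24 (adjusted p = 0.91), with -0.34 when WT replicate 3 and 0.05 when Mll3-null replicate 3 was left out.

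Interferon-stimulated genes outside antigen presentation had another array pattern than the immunoproteasome subunits. Of 30 listed genes 27 had a value, 25 with a higher and 2 with a lower mean in Mll3-null cells (median 0.36, 0 past the correction). At an unadjusted p under 0.05 there were 2, both on the higher side, beside 2.51% of all genes. Earlier results of these data had shown the higher direction for an overlapping list. The median was 0.15 without Mll3-null replicate 2, 0.24 without WT replicate 1, 0.57 without WT replicate 2 and 0.65 with array weights. Iigp1, an interferon-inducible GTPase, was at 6.02, 5.83 and 5.71 in WT and 6.89, 7.64 and 7.18 in Mll3-null replicates (1.38 ± 0.20, SE; adjusted p = 0.84), Mx2 differed by 0.92 ± 0.36 and Trim25 by 0.20 ± 0.09 (adjusted p = 0.84 each). Mx2 was 0.51 without Mll3-null replicate 2. As a mean deviation per array, these 27 genes stood at -0.40, 0.17 and -0.35 in WT and 0.18, 0.61 and -0.21 in Mll3-null replicates. The transport and loading genes Tap1, Tap2 and Tapbp stood at -0.05, 0.14 and -0.17 against 0.11, 0.29 and -0.32, and the immunoproteasome genes at 0.30, 0.31 and -0.55 against 0.41, 0.05 and -0.52. The means of the interferon-stimulated and of the transport and loading genes were thus highest in Mll3-null replicate 2. Tapbp alone was at 0.01 on that array and highest in WT replicate 2 (0.28). On average the immunoproteasome genes were near their 6-array mean in Mll3-null replicate 2 and high in WT replicate 1, where the interferon-stimulated genes were lowest. Nlrc5 was likewise lowest in WT replicate 1 (-0.33) and highest in Mll3-null replicate 2 (0.24). The mean of B2m and H2-K1 had yet another order, -0.18, 0.16 and -0.19 against -0.12, 0.10 and 0.23, with the highest value in Mll3-null replicate 3. That peak was of H2-K1 (0.39), while B2m stood at 0.07 on that array and was highest in WT replicate 2 (0.17).

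**Figure D4:**
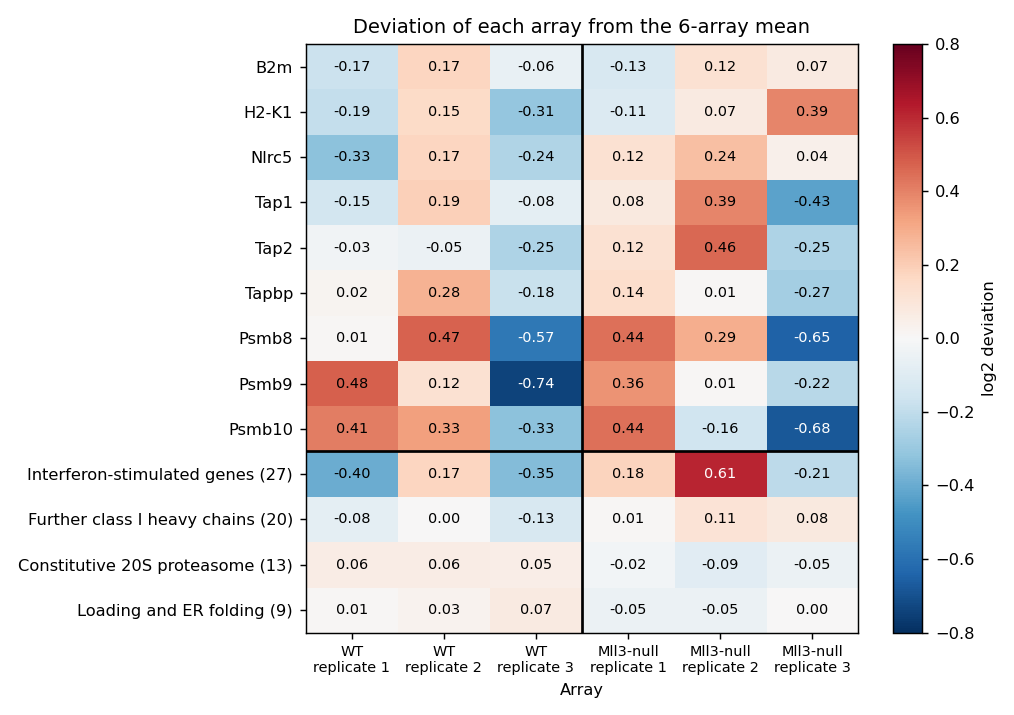
Log2 deviation of each array from the 6-array mean, for the 9 class I genes (upper rows) and for the mean of the genes of 4 related lists (lower rows, number of genes in brackets), with WT and Mll3-null arrays split by the vertical line. The immunoproteasome rows are lowest on the replicate 3 arrays, from -0.22 to -0.74, while the list means of the constitutive proteasome stay between -0.09 and 0.06.

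Psmb9 and Tap1, which share the printed stretch, did not follow the same array order. Psmb9 was highest in WT replicate 1 (0.48 above its mean) and lowest in WT replicate 3 (-0.74). Tap1 lay at -0.15 and -0.08 on those arrays, and it was highest in Mll3-null replicate 2 (0.39) and lowest in Mll3-null replicate 3 (-0.43). The median deviation of the 36 other expressed genes between Tapbp and H2-D1 stayed between -0.05 and 0.03 on the 6 arrays, and those of the expressed genes of chromosomes 2, 8 and 17 between -0.05 and 0.06.

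Among 2122 other genes with a mean of at least 6 and an SD of at least 0.3, the 5 with the pattern most like the mean of the 9 genes over the 6 arrays were Stmn2, a regulator of microtubules (Pearson r = 0.974), Trafd1 (0.960), the calcium-binding S100a4 (0.927), the focal adhesion protein Tns3 (0.921) and Uba7, the activating enzyme of ISG15 (0.919). Of the 2122 genes 6 had an r above 0.9, and all points share the same 6 arrays. Stmn2 was at 10.02, 11.34 and 7.34 in WT and 11.53, 11.37 and 6.80 in Mll3-null replicates. It was lowest on the replicate 3 arrays, which follows from its choice by likeness to the mean of the 9 genes. Uba7 spanned less, from 6.24 in Mll3-null replicate 3 to 7.07 in Mll3-null replicate 1.

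The counterpart pathway and the ligands read by T and NK cells were also examined. Of 10 MHC class II genes 9 had a value, 6 of them with a mean under 4, and 5 had a higher and 4 a lower mean (median 0.08, 0 past the correction and 0 at an unadjusted p under 0.05). H2-Ab1 reached 5.56 in Mll3-null replicate 1, the remaining 5 arrays lying between 3.29 and 3.63, H2-Eb1 differed by 0.15 ± 0.11 and H2-DMb1 by 0.12 ± 0.09 (log2, SE; adjusted p = 0.84 each). The difference of H2-Ab1, 0.78 ± 0.54, was 0.10 with Mll3-null replicate 1 left out and 1.18 with replicate 3 left out, while H2-Eb1 was 0.06 without WT replicate 3 and H2-DMb1 0.07 without Mll3-null replicate 3. Of 17 ligands and checkpoint genes 13 had a value, 6 with a higher and 7 with a lower mean (median -0.02, 0 past the correction and 0 at an unadjusted p under 0.05). Of the 13 genes 5 had a mean under 4. Among those with a mean of at least 4, 1 was higher and 7 were lower (median -0.16). The costimulator Cd80 was at 6.45, 7.90 and 8.03 in WT and 6.59, 6.70 and 4.55 in Mll3-null replicates (-1.51 ± 0.68), the NKG2D ligand Ulbp1 differed by -0.76 ± 0.47 and Pdcd1lg2 (PD-L2), under 4 on all arrays, by 0.13 ± 0.08 (adjusted p = 0.84 each). Cd80 was -0.82 without Mll3-null replicate 3, and Ulbp1 ran from -1.22 to -0.21 as Mll3-null replicates 1 and 2 were left out.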

How the data were processed

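Total RNA of 6 cultures was read on single-channel Affymetrix arrays. Per the submitters' processing notes the arrays went through Affymetrix Expression Console; the sources used here do not give its version, the summarization, the normalization or a genome build. The authors' deposited values were taken as log2 expression from their range (1.72 to 13.56) and near-equal array medians. On such a scale a shift of all transcripts together would not show. Columns were matched by sample name; 0 columns fell outside the 6 samples.

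Of 41345 probe sets, 23521 had exactly 1 symbol in the platform annotation and 1814 several; the latter were not used. The probe set with the highest mean stood for a gene (22180 genes). Mll3-null and WT arrays were compared in R 4.3.3 by limma 3.58.1 (lmFit and eBayes, two-sided, no covariate), with Benjamini-Hochberg adjustment over all genes and a threshold of 0.05. Ratios within arrays were compared by exact permutation (SciPy 1.17.1). The fit was run on simulated data with planted changes larger than any class I difference here and independent noise. That run does not measure power for differences of the size seen in these genes.

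Members, lists and tests were chosen with earlier results of these data known. Besides the members, the text names the 3 genes of smallest p in each list, any list gene past the correction (none) the 5 genes most like the members' mean and the constitutive partners Psmb5, Psmb6 and Psmb7 of the ratio test; other genes are marked as named after their values were seen. Expressed genes are those with a mean above 6. Promoter windows are RefSeq's (GRCm38.p6), for 8 of 10 members; protein sequences were not used. Alternatives were an intensity trend, dropping dim genes, median centring, quantile normalization, the mean of a gene's probe sets, the replicate block, array weights and leaving out each array. For list genes, a value without an array is the extreme over the 6 arrays left out in turn.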

Additional observations from a re-analysis of the deposited data

How the results depend on the processing

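The counts of class I genes and of all genes with an adjusted p under 0.05 were 0 under each alternative run (limma), with 716 to 2742 genes at an unadjusted p under 0.05 against 1093 as reported; the smallest adjusted p of a class I gene was 0.43, with array weights. At an unadjusted p under 0.05 stood Tap2 and Nlrc5 with array weights, Nlrc5 without WT replicate 2 and Tap2 without Mll3-null replicate 3. In those settings 2504, 925 and 858 of all 22180 genes passed that threshold. Among settings that kept all arrays, the 1 sign that turned was that of B2m, at -0.00 under quantile normalization. As each array was left out, differences (log2) ran from -0.03 to 0.14 for B2m, -0.16 to 0.25 for Tap1, -0.18 to 0.05 for Tapbp, -0.22 to 0.39 for Psmb8, -0.25 to 0.36 for Psmb9 and -0.55 to 0.01 for Psmb10, while H2-K1 (0.10 to 0.37), Tap2 (0.04 to 0.40) and Nlrc5 (0.17 to 0.42) kept their sign. The ratios ran from -0.00 to 0.61 (Psmb8 to Psmb5), -0.16 to 0.43 (Psmb9 to Psmb6) and -0.44 to 0.13 (Psmb10 to Psmb7). Counts of list genes with a higher mean moved by over 1.5 times in 11 of 130 recomputations. No label pairs the arrays by replicate number. Correlations of deviations across genes were 0.03, 0.08 and 0.31 for same-numbered arrays and ran from -0.29 to 0.22 for the others. Whether arrays of a number share an effect was not tested. With the replicate block 0 genes and 0 class I genes passed the correction, with 1290 genes at an unadjusted p under 0.05. No detection values were used, so how far Nlrc5 stands above background is unknown.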
